A study of Mus musculus with 9 samples.

Results

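The enzymes and helpers that hydroxylate, fold, trim and crosslink collagen were followed through 10 genes in injured mouse muscle. These were the lysyl oxidases Lox, Loxl1, Loxl2 and Loxl3, the lysyl hydroxylases Plod1 and Plod2, the prolyl 4-hydroxylase catalytic subunits P4ha1 and P4ha2, the collagen chaperone Serpinh1, and Pcolce, which enhances propeptide removal. The members were chosen by name through their Ensembl identifiers, and all 10 of the 10 were found among the 54532 genes of the count table. That choice was made with earlier results of these data known. All 10 passed the filter on low counts in every comparison.

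Collagen chains are modified in the endoplasmic reticulum before they are secreted. Prolyl 4-hydroxylases, tetramers of a P4ha subunit and P4hb, make the 4-hydroxyproline that holds the triple helix together at body temperature, and Plod enzymes hydroxylate lysines that later take part in crosslinks. Serpinh1, also called HSP47, binds the folded triple helix on its way out of the reticulum. Outside the cell, the proteinase Bmp1 removes the C-terminal propeptide with the help of Pcolce, and lysyl oxidases then oxidize lysines so that fibrils crosslink and stiffen. In injured muscle, fibroblasts and fibro-adipogenic progenitors are the best-known makers of this matrix.

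RNA was sequenced from tibialis anterior muscle of C57/BL6J mice in 3 groups of 3 libraries, all injured by an injection of barium chloride. Young PBS mice were aged 4 months and old PBS mice 24 months, and both received 3 injections of phosphate-buffered saline. Old rMETRNL mice, also 24 months old, received recombinant METRNL (meteorin-like, a secreted protein) in its place, at the time of injury and 24 h and 48 h later. By their labels, the old PBS replicates are numbered from 2 to 4 and those of the other groups from 1 to 3. The sources differ on the material: the sample records describe strained cell suspensions and the series description day 4 after injury, whereas the study's text describes whole muscle on day 8. Nothing in the labels states that the 3 libraries of a group come from 3 mice, so p-values measure the spread between these libraries.

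Libraries held 16238700 to 22522560 counts. Genes of mature muscle fibres summed to 64614 to 109885 CPM (counts per library scaled to 1000000) over the 9 libraries, so muscle RNA was present in each. The old PBS group stood apart in 2 ways. Each of the 6 brain genes and 5 liver genes listed had its 3 highest values in old PBS, with brain sums of 73.0 to 230 CPM against 7.62 to 13.0 CPM in young PBS and 9.91 to 10.8 CPM in old rMETRNL, and Mobp, a myelin gene, was at 0 in all 6 libraries outside old PBS. Liver sums were 7.61 to 80.1 CPM in old PBS and at most 0.462 CPM elsewhere. Old PBS 3 also differed from old PBS 2 and 4: its genes of new muscle fibres summed to 3224 CPM, against 743 CPM and 240 CPM, and its mature fibre sum was the lowest of the 9.

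P4ha1 and P4ha2 had the narrowest ranges of the 10 genes in the values below, so the bases before their RefSeq start sites are shown beside those of Plod1 and Serpinh1. RefSeq windows on GRCm38.p6 were found for 5 members, Plod1, P4ha1, P4ha2, Serpinh1 and Pcolce. Each line gives the 150 bases 5′ of the start on the strand of the gene, and capitals mark ACGTG or GCGTG, the core read by hypoxia-inducible factors, on either strand. The windows are chr4:147936777-147936926 (minus strand) for Plod1, chr10:59323146-59323295 (plus) for P4ha1, chr11:54100774-54100923 (plus) for P4ha2 and chr7:99353240-99353389 (minus) for Serpinh1.
Plod1: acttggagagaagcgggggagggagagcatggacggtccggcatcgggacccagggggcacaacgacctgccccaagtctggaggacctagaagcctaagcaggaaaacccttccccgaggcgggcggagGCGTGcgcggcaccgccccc
P4ha1: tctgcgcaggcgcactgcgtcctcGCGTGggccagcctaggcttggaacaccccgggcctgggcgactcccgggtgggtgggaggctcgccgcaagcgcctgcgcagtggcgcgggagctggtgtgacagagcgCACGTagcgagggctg
P4ha2: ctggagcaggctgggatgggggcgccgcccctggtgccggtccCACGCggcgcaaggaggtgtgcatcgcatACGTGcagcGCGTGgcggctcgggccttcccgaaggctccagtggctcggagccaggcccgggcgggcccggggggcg
Serpinh1: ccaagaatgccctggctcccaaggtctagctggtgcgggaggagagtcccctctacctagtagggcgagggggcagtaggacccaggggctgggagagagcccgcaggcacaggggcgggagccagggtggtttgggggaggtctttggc
In the 250 bases before the start, searched on both strands, P4ha1 and P4ha2 each held 1 ACGTG and 2 GCGTG. The GCGTG of P4ha1 that lies 163 bases before the start is outside the printed stretch. Plod1 held 1 GCGTG, Pcolce 1 GCGTG, and Serpinh1 1 ACGTG, which lies 171 bases before the start and so outside the printed stretch. The windows of P4ha2 and Pcolce lie inside the spans of their genes in GENCODE M21, and that of Pcolce overlaps an annotated UTR of Pcolce. The windows of the other 4 genes overlap no annotated UTR. Of 32851 RefSeq windows of the same length, 38.6% held at least 1 of these cores, 16.6% ACGTG and 28.2% GCGTG. The G-rich motif GGGCGG was in all 5 member windows and in 32.7% of all windows, TATAAA was in the Plod1 window and in 12.4% of all, and CCAAT was in none of the 5 and in 33.8% of all. These matches describe letters only.

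The deposited table has no coordinates, and the submitters' notes name the build mm9, whereas its identifiers fit the GENCODE M21 annotation. Positions here are those of GENCODE M21 on GRCm38. Of the oxidases, Lox lies at chr18:52516067-52529867, Loxl1 at chr9:58287738-58313186, Loxl2 at chr14:69609068-69695834 and Loxl3 at chr6:83034173-83052562. Plod1 lies at chr4:147909753-147936767 and Plod2 at chr9:92542223-92608428. P4ha1 lies at chr10:59323296-59373304 and P4ha2 at chr11:54100095-54131665. Serpinh1 lies at chr7:99345376-99353239 and Pcolce at chr5:137605103-137613784. Exons of Loxl3 share 535 bases, 11.6% of its exon length, with Htra2 on the opposite strand, and the strand setting of the counting is not given in the sources used here, so Loxl3 counts are uncertain. How many of its reads lie in the shared bases was not measured. Shared exon bases were at most 6.42% of the exon length for every other member.

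Levels between genes were compared as CPM per kilobase of exon, over all 9 libraries. Serpinh1 was the most abundant member at a mean of 98.2 CPM per kb, followed by Pcolce at 37.5, Loxl1 at 29.9 and Lox at 14.6. Each of the first 3 stood above the next in 9 of 9 libraries, and Lox stood above Loxl2 in 8 of 9. Loxl2 at 10.3, Plod1 at 10.1 and P4ha1 at 9.65 CPM per kb could not be ordered beyond their spread, since Loxl2 was above Plod1 in 5 libraries and Plod1 above P4ha1 in 6. P4ha1 was above P4ha2, at 4.80, in 9 of 9. At the bottom, Loxl3 at 4.20 CPM per kb and Plod2 stood close to P4ha2, each neighbour being the higher one in 6 of 9 libraries.

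**Figure D1:**
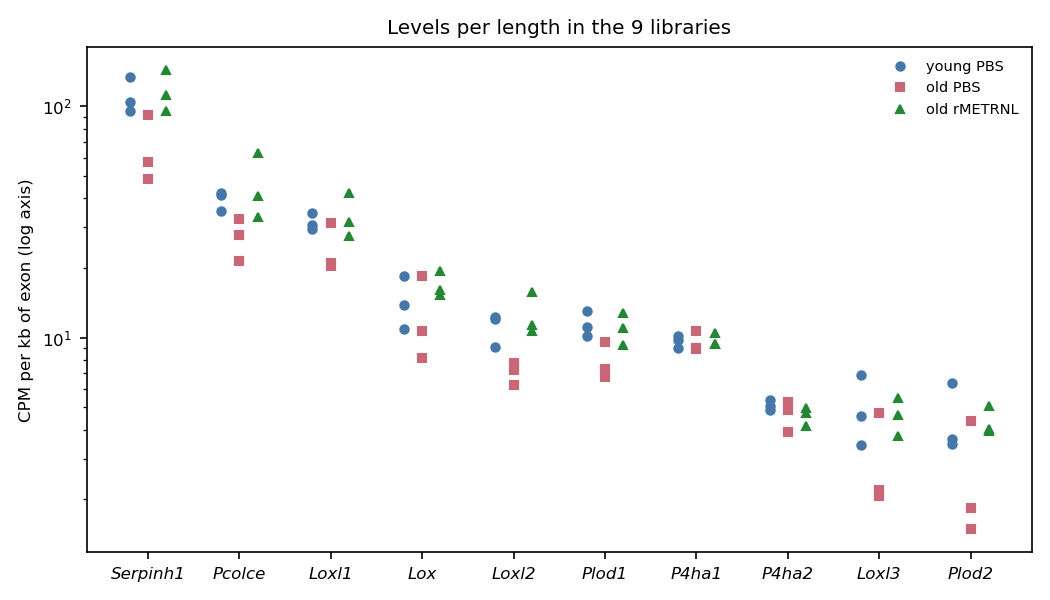
Level per exon length of the 10 genes on a log axis, as CPM per kb, with 1 symbol for each of the 9 libraries and colours for the 3 groups. Serpinh1 is highest in every library, and old PBS symbols (squares) reach lowest for Loxl3 and Plod2.

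Among the lysyl oxidases, the old PBS libraries held the lowest values of Lox, Loxl1, Loxl2 and Loxl3, but only Loxl2 separated old PBS from both other groups. Values are CPM scaled by the TMM factors of all 9 libraries. Lox, the founding lysyl oxidase, had 51.9, 66.2 and 88.3 CPM in young PBS 1 to 3, then 50.9, 88.7 and 38.9 CPM in old PBS 2 to 4, and 93.2, 76.9 and 73.3 CPM in old rMETRNL 1 to 3. Old PBS 3 was the second highest of all 9 libraries and old PBS 4 the lowest, so the groups overlapped. The log2 fold change of Lox was -0.21 ± 0.32 (SE, n = 3 per group) in old PBS against young PBS and 0.44 ± 0.29 in old rMETRNL against old PBS, with edgeR adjusted p of 0.994 and 0.724.

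Loxl1, an oxidase tied to elastic fibres, had 96.9, 101 and 114 CPM in young PBS, 69.2, 103 and 67.6 CPM in old PBS and 139, 105 and 90.3 CPM in old rMETRNL. Again old PBS 3 lay among the young libraries while old PBS 2 and 4 lay below all of them. Its log2 fold changes were -0.38 ± 0.21 and 0.47 ± 0.24, neither past the threshold (edgeR adjusted p 0.959 and 0.663).

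Loxl2, which crosslinks collagen IV and fibrillar collagen, had 66.4, 49.4 and 65.0 CPM in young PBS, 41.8, 39.4 and 33.7 CPM in old PBS, and 85.3, 61.1 and 58.0 CPM in old rMETRNL. Here all 3 old PBS libraries lay below all 6 others, old PBS 3 included. The log2 fold change was -0.65 ± 0.18 in old PBS against young PBS (edgeR adjusted p 0.372) and 0.83 ± 0.19 in old rMETRNL against old PBS (edgeR adjusted p 0.191). DESeq2 gave the second of these an adjusted p of 0.0252, and edgeR with no filter on low counts, which called 2.55% of all genes, an adjusted p of 0.00628.

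Loxl3, an oxidase known for its role in palate development, was the least abundant of the 4. It had 15.8, 21.2 and 31.6 CPM in young PBS, 9.56, 21.7 and 10.1 CPM in old PBS and 25.3, 21.3 and 17.3 CPM in old rMETRNL. Old PBS 2 and 4 were below every other library, and old PBS 3 was not. Its log2 fold changes were -0.72 ± 0.37 and 0.61 ± 0.32 (edgeR adjusted p 0.939 and 0.669).

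The lysyl hydroxylases differed in how tightly their libraries agreed. Plod1, which hydroxylates lysines of the helix, had 75.1, 68.7 and 88.6 CPM in young PBS, 49.7, 65.0 and 45.7 CPM in old PBS and 86.8, 74.8 and 62.7 CPM in old rMETRNL. Each old PBS value was under each young value, whereas old rMETRNL 3 lay below old PBS 3. The log2 fold changes of Plod1 were -0.54 ± 0.19 and 0.48 ± 0.20 (edgeR adjusted p 0.695 and 0.586).

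Plod2, the hydroxylase of the telopeptide lysines, had 18.7, 19.7 and 34.3 CPM in young PBS, 9.89, 23.5 and 7.99 CPM in old PBS and 21.2, 27.4 and 21.8 CPM in old rMETRNL. Its highest library was 4.29-fold above its lowest, the widest range of the 10 genes, and old PBS 3 stood above young PBS 1 and 2. Its log2 fold changes, -0.81 ± 0.42 and 0.75 ± 0.37, were not past the threshold (edgeR adjusted p 0.944 and 0.661).

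The prolyl 4-hydroxylase subunits were nearly level over the groups. P4ha1 had 40.1, 41.7 and 37.0 CPM in young PBS, 43.9, 36.8 and 37.2 CPM in old PBS, and 43.1, 38.7 and 38.6 CPM in old rMETRNL. All 9 values lay within 1.19-fold, and the groups overlapped fully. For old PBS against young PBS the log2 fold change of P4ha1 was -0.01, with a 95% interval of -0.35 to 0.33, and for old rMETRNL against old PBS it was 0.03, with an interval of -0.31 to 0.37.

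P4ha2, the other common catalytic subunit, had 31.6, 30.3 and 33.5 CPM in young PBS, 30.2, 24.5 and 33.0 CPM in old PBS and 30.9, 29.5 and 25.8 CPM in old rMETRNL. Here old PBS 3 was the lowest library and old PBS 4 the second highest, the reverse of their order for Lox, Plod2 and Serpinh1. The whole range was 1.37-fold. The log2 fold change was -0.13 (95% interval -0.49 to 0.24) in old PBS against young PBS and -0.02 (-0.41 to 0.36) in old rMETRNL against old PBS. These intervals leave out a change of 1 on the log2 scale in either direction.

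The chaperone and the propeptide enhancer, both specific to collagen, had the clearest order of groups beside Loxl2. Serpinh1 had 254, 234 and 329 CPM in young PBS, 141, 224 and 118 CPM in old PBS and 351, 275 and 233 CPM in old rMETRNL. All old PBS values were under all others, although old PBS 3 lay close to young PBS 2 and old rMETRNL 3. For Serpinh1 the log2 fold changes were -0.76 ± 0.27 and 0.83 ± 0.28 (edgeR adjusted p 0.696 and 0.456).

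Pcolce had 161, 135 and 158 CPM in young PBS, 81.6, 124 and 107 CPM in old PBS and 240, 156 and 127 CPM in old rMETRNL. The groups did not overlap in either comparison with old PBS, but old PBS 3 and old rMETRNL 3 lay side by side, and the old rMETRNL mean of 174 ± 58.6 CPM (SD, n = 3) rested in large part on replicate 1. The log2 fold changes were -0.54 ± 0.20 and 0.74 ± 0.27 (edgeR adjusted p 0.719 and 0.512).

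**Figure D2:**
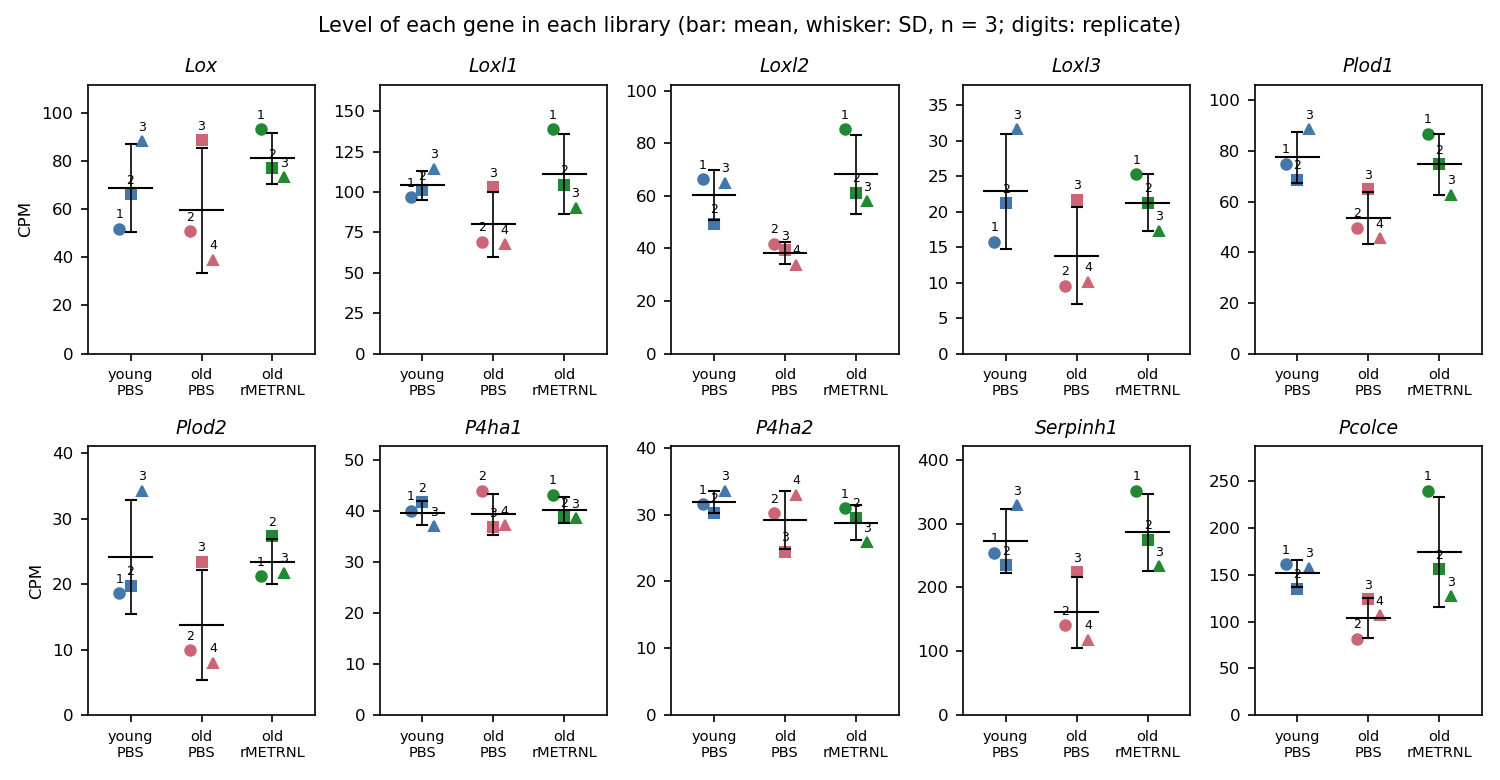
CPM of each gene in each library, from 0, with a bar at the mean and a whisker of 1 SD for 3 libraries per group and the replicate number above each symbol. Old PBS lies lowest for Loxl2, Serpinh1 and Pcolce, old PBS 3 lies with the young libraries for Lox and Loxl1, and P4ha1 and P4ha2 are level.

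Ageing of the injured muscle was addressed by old PBS against young PBS. No member passed the threshold of an edgeR adjusted p under 0.05, where 10 of 15560 genes did (0.0643%), all of them higher, and DESeq2 also called no member among 265 genes (0.92%). The genes that edgeR called included 3 of the 6 brain genes and 1 of the 5 liver genes listed. All 10 members had log2 fold changes below 0, against 47.9% of all genes, and their median was -0.54 against 0.01 for all genes. Members with an unadjusted p under 0.05 numbered 4 (Loxl2, Plod1, Serpinh1 and Pcolce), and the same 4 had old PBS libraries below all young libraries. That count was 8 without old PBS 3, 6 with the replicate block, 2 without old PBS 4, and 1 without old PBS 2 or without young PBS 3. Among all genes, with all 6 libraries and no block, 2.42% had such a p with a lower value. Of all genes, 5.25% had old PBS libraries below all young ones. In either direction, 3322 of 15884 genes had such a p without old PBS 3, and 919 of 15560 with the replicate block. Their number was 871 of 16128 without old PBS 4, 684 of 16130 without old PBS 2 and 618 of 16238 without young PBS 3.

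Old rMETRNL against old PBS addressed the injected protein. Again no member passed the threshold with edgeR, where 17 of 15682 genes did (0.108%), all lower. Those genes included 4 of the 6 brain genes and 2 of the 5 liver genes listed. DESeq2 called 1.22% of the genes it tested, 0.148% as higher, and among the higher genes 1 member, Loxl2. The log2 fold change was above 0 for 9 of 10 members, all but P4ha2, against 49.3% of all genes, with a median of 0.55 against -0.01. The 4 members named above were those with an unadjusted p under 0.05, against 3.51% of all genes in that direction. The number of such members was 8 without old PBS 3, 1 without old PBS 2 or without old rMETRNL 1, and 0 with the replicate block. Over all genes and in either direction, it was 4410 of 15981 without old PBS 3 and 867 of 16275 without old PBS 2. It was 800 of 16418 without old rMETRNL 1 and 477 of 15682 with the replicate block. Loxl2, Serpinh1 and Pcolce did not overlap between the groups, being higher in old rMETRNL, as did 6.99% of all genes. Both comparisons share the old PBS libraries, so an old PBS value moves both of them in opposite directions.

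Old rMETRNL against young PBS does not use the old PBS libraries. Of 15396 genes, 0 passed with edgeR (0%), 371 (2.41%) had an unadjusted p under 0.05, and DESeq2 called 0. No member had an unadjusted p under 0.05, and no member's groups were separate, where 3.94% of all genes were higher and 2.96% lower without overlap. The log2 fold changes ran from -0.15 for P4ha2 to 0.24 for Lox, with a median of 0.05 against 0.00 for all genes. Intervals were widest for Loxl3, -0.60 to 0.39, and narrowest for P4ha1, -0.21 to 0.25.

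**Figure D3:**
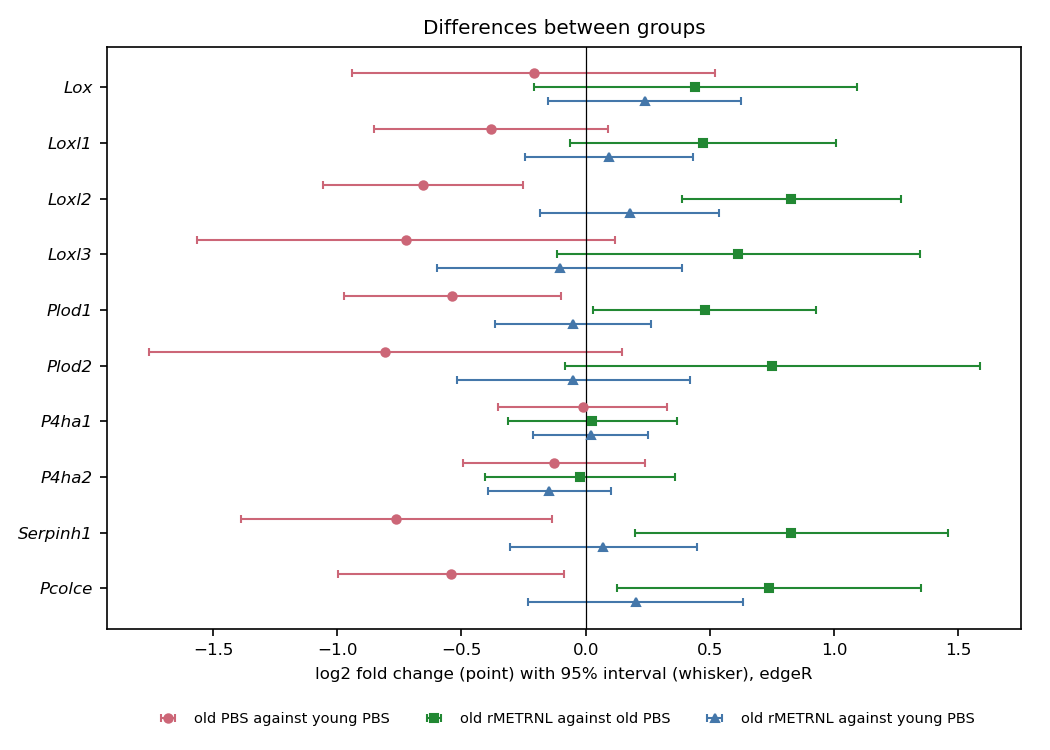
Log2 fold change of each gene (symbol) with its 95% interval (whisker) from edgeR for the 3 comparisons. Red symbols lie left of 0 and green symbols right of 0 for 8 genes, the symbols of P4ha1 and P4ha2 lie within 0.13 of 0 in these comparisons, and the blue symbols of old rMETRNL against young PBS lie between -0.15 and 0.24.

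Calls depended on 1 library, old PBS 3. Without it, 401 of 15884 genes passed in old PBS against young PBS, and 2 members, Serpinh1 and Plod2, were lower with log2 fold changes of -1.08 and -1.45 (edgeR adjusted p 0.0389 and 0.0495), where 0.705% of all genes were called lower. In old rMETRNL against old PBS, 1560 of 15981 genes passed without it, and 6 members were called higher, Lox, Loxl2, Loxl3, Plod1, Plod2 and Serpinh1, where 3.78% of all genes were. Among these, Plod2 had a log2 fold change of 1.39 and Loxl3 of 1.11 (edgeR adjusted p 0.00553 and 0.0135). P4ha1 and P4ha2 were not called there either, at -0.02 and -0.14. Loxl2 moved least with the library, from 0.83 to 0.85. Leaving out any other single library called no member.

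**Figure D4:**
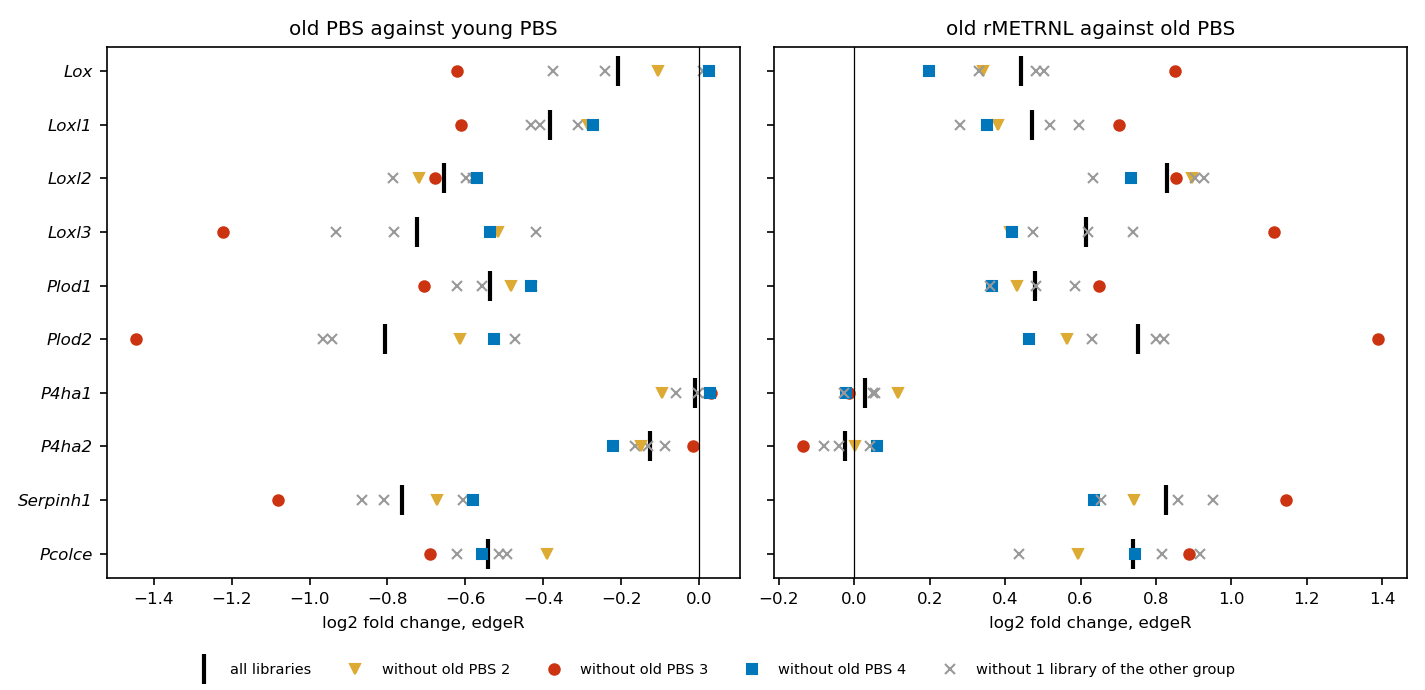
Log2 fold change of each gene with all 6 libraries (bar) and with 1 library left out (other symbols), for old PBS against young PBS (left) and old rMETRNL against old PBS (right). The red circles, without old PBS 3, lie farthest from 0 in both plots for Lox, Loxl1, Loxl3, Plod1, Plod2 and Serpinh1, and those of Loxl2 lie near the bar.

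The collagens and elastin on which these enzymes act had larger fitted differences than the 10 genes at the median, but the ranges overlapped. Col1a1, Col1a2 and Col3a1 together took 1.02%, 1.10% and 1.70% of the counts in young PBS, 0.511%, 0.993% and 0.280% in old PBS, and 1.69%, 1.28% and 0.936% in old rMETRNL. The log2 fold changes of the 11 substrate genes (fibrillar and basement membrane collagens and elastin) had a median of -0.96 in old PBS against young PBS and, for the 10 tested, 0.94 in old rMETRNL against old PBS. They ran from -2.76 (Col11a1) to -0.28 (Eln) in the first, where the members ran from -0.81 to -0.01. In the second they ran from 0.76 (Eln) to 1.14 (Col3a1), and the members from -0.02 to 0.83. The difference between the lists was not tested. None of the substrate genes passed with edgeR. DESeq2 called Col1a2 and Col3a1 lower in the first comparison and higher in the second, against 0.0938% and 0.148% of all genes in those directions. An unadjusted p under 0.05 was found for 9 (lower) and 8 (higher), against 2.42% and 3.51% of all genes in those directions. Without old PBS 3, edgeR called 1 of them lower in the first comparison (Col1a2) and 8 higher in the second, Col1a1, Col1a2 and Col3a1 among them. With no filter on low counts it called 1 lower (Col11a1) and 5 higher. Of all genes, 0.705% were called lower and 3.78% higher without old PBS 3, and 0.219% lower and 0.541% higher with no filter.

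Counts of the 10 genes per 1000 counts of these 3 collagens were 76.2, 69.8 and 61.0 in young PBS, 94.4, 88.0 and 147 in old PBS, and 70.3, 72.3 and 78.4 in old rMETRNL. The old PBS libraries were thus the 3 highest. For Lox, these were 4.87, 6.01 and 5.50 counts in young PBS, 9.12, 10.4 and 11.5 in old PBS and 5.87, 6.43 and 7.69 in old rMETRNL. Old PBS 3, which stood with the young libraries in Lox level, stood with old PBS 2 and 4 in this ratio. The ratio of Lox was 1.89-fold higher in old PBS than in young PBS and 0.644 times as high in old rMETRNL as in old PBS (two-sided exact permutation p = 0.1 for each, the smallest that 3 against 3 allows). On the log2 scale the first shift was 0.92, at percentile 19.9 of all genes, whose median was 1.18. Most genes thus rose more than Lox against these collagens.

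P4ha1 had the largest shift in old PBS against young PBS, with 3.76, 3.79 and 2.31 counts per 1000 collagen counts in young PBS, 7.86, 4.32 and 11.0 in old PBS and 2.72, 3.24 and 4.05 in old rMETRNL. Its ratio was 2.25-fold higher in old PBS than in young PBS. Over the 10 genes the log2 ratio was higher in old PBS than in young PBS for 10, by 0.26 (Plod2) to 1.17 (P4ha1), and lower in old rMETRNL than in old PBS for 10, by -0.24 (Plod2) to -1.18 (P4ha2). Such a shift was the rule for all genes: among 15557 genes tested the median was 1.18 against 0.63 for the members, and 65.5% had old PBS ratios above all young ratios, against 5 of 10 members (Lox, Loxl1, Plod1, P4ha1 and Serpinh1). Comparing old rMETRNL with old PBS, 57.8% of genes had separate and lower ratios, against 6 of 10 members. Together with 5 ratios between members, 45 ratios were compared over the 3 comparisons, and the smallest adjusted exact p was 0.346.

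**Figure D5:**
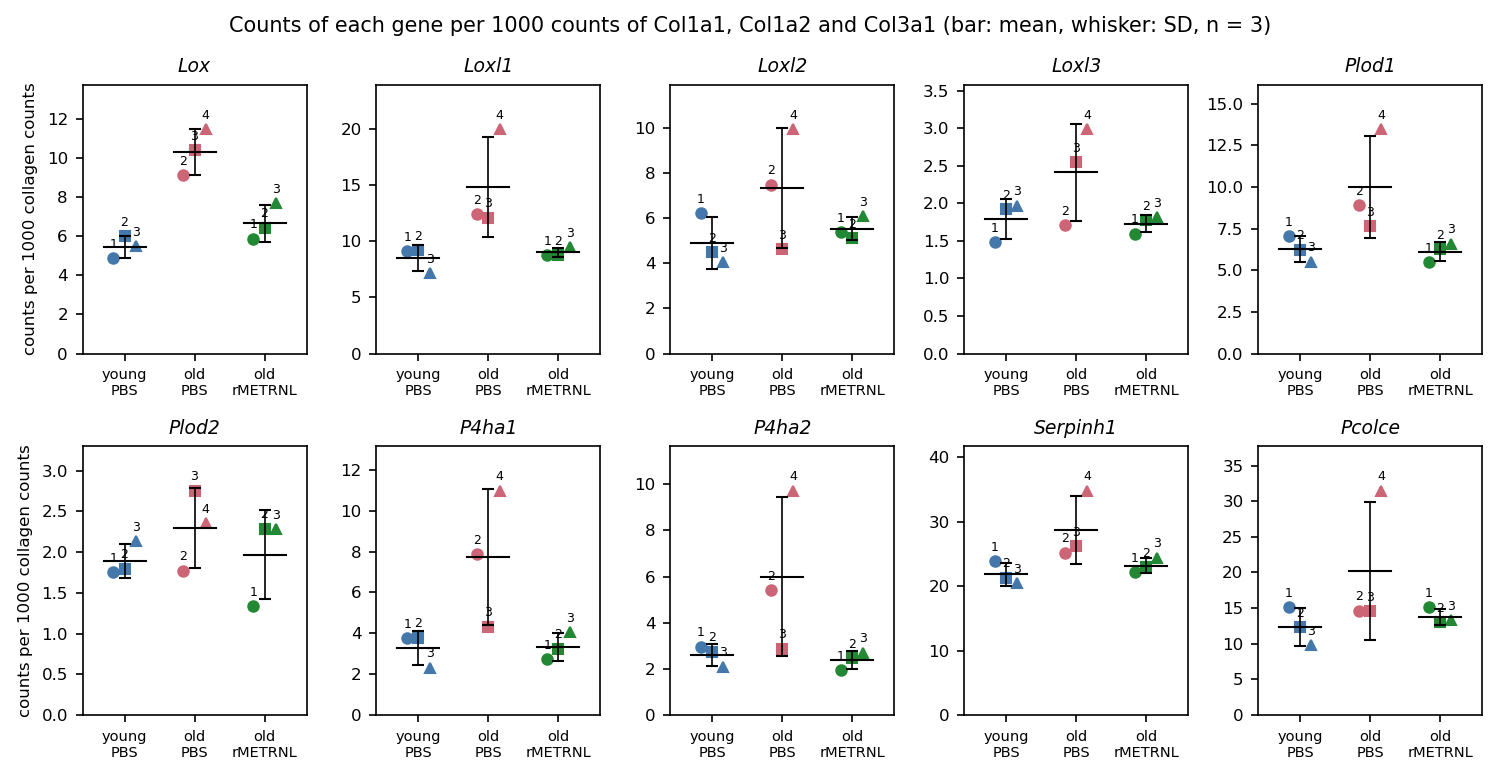
Counts of each gene per 1000 counts of Col1a1, Col1a2 and Col3a1 in each library, from 0, with a bar at the mean and a whisker of 1 SD for 3 libraries per group. Old PBS 4 is the highest library for 9 of the 10 genes, and the Lox ratio is high in all 3 old PBS libraries, at 9.12 to 11.5. Of all genes, 65.5% had old PBS ratios above all young ratios.

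Loxl1 was the main transcript of the lysyl oxidase family. On the per-length scale it made up 47.0% to 54.7% of the summed level of Lox and Loxl1 to Loxl4 over the 9 libraries, Lox 19.1% to 29.6%, Loxl2 11.6% to 21.6%, Loxl3 4.92% to 9.42% and Loxl4 at most 1.74%. Of the 5 ratios between members that were compared, Loxl3 to Lox was the one whose groups separated. On the log2 scale it was 0.51 lower in old PBS and 0.32 lower in old rMETRNL than in young PBS (two-sided exact permutation p = 0.1 for each), and the exon overlap of Loxl3 with Htra2 applies to it. The ratios of P4ha2 to P4ha1, Plod2 to Plod1, Loxl2 to Lox and Loxl1 to Lox overlapped between all groups.

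The other genes of collagen modification were read from a list of 34, of which 33 were tested. In old PBS against young PBS 0 of 33 passed with edgeR. An unadjusted p under 0.05 was found for 9, against 5.91% of all genes in either direction. DESeq2 called 1 lower, Fkbp10, a chaperone that works with the lysyl hydroxylases, against 0.0938% of all genes called lower. Of the 33, 27 had a log2 fold change below 0, with a median of -0.36. The lowest were Adamts3 at -1.84, a procollagen N-proteinase, P4ha3 at -1.12, the third catalytic subunit of the prolyl 4-hydroxylases, and Thbs1 at -1.02, a matricellular protein. The highest were Pcolce2 at 0.34, Tmem38b at 0.19 and Mia3 at 0.18. All 6 genes of the prolyl 3-hydroxylation complex were below 0, P3h1 among them with 37.4, 35.9 and 47.1 CPM in young PBS and 19.3 to 30.3 CPM in old PBS.

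Of the same 33 genes, in old rMETRNL against old PBS 0 passed with edgeR and DESeq2 called 0. An unadjusted p under 0.05 was found for 10, against 8.07% of all genes in either direction. The log2 fold change was above 0 for 28, with a median of 0.49. Adamts3 at 1.21, Fkbp10 at 0.84 and Bmp1 at 0.82 were the highest, and Mia3 at -0.32, Tmem38b at -0.25 and Pcolce2 at -0.21 the lowest. Adamts3 had 0.509 to 1.54 CPM in old rMETRNL, which overlapped old PBS. Bmp1, the proteinase that Pcolce assists, had 109, 112 and 124 CPM in young PBS, 63.2, 101 and 63.7 CPM in old PBS and 166, 126 and 112 CPM in old rMETRNL, without overlap between old PBS and either other group. P4hb, the partner of P4ha1 and P4ha2, had 301, 314 and 365 CPM in young PBS, 279, 270 and 275 CPM in old PBS and 359, 325 and 309 CPM in old rMETRNL, also without overlap. Between old PBS and young PBS 10 of the 33 were lower without overlap, against 5.25% of all genes. Between old rMETRNL and old PBS 12 were higher without overlap, against 6.99%. Without old PBS 3, edgeR called 4 of the 33 lower in the first comparison, against 0.705% of all genes. It called 12 higher in the second, against 3.78%. In old rMETRNL against young PBS 0 of 33 passed, 1 had an unadjusted p under 0.05 (Fmod, at -0.56), DESeq2 called 0, and the median was 0.02.

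Genes tied to hypoxia and to TGF-beta, the latter including the ligand genes Tgfb1, Tgfb2 and Tgfb3, had medians near 0 but single genes that differed more. The 12 hypoxia genes had a median log2 fold change of 0.11 in old PBS against young PBS and -0.08 in old rMETRNL against old PBS, and the 9 TGF-beta genes 0.03 and -0.07. None of the 21 passed in any comparison with DESeq2, or with edgeR on all 6 libraries after the filter on low counts. An unadjusted p under 0.05 was found for 1 in each comparison with old PBS and for 2 in old rMETRNL against young PBS. Shares of all genes were 5.91% and 8.07% in the comparisons above, and 2.41% in old rMETRNL against young PBS. Adm, a hypoxia target, had the highest log2 fold change of the 21 in old PBS against young PBS, 0.69 ± 0.27, and Egln3, the oxygen-sensing prolyl hydroxylase, the lowest in old rMETRNL against old PBS, -0.76 ± 0.23 (edgeR adjusted p 0.754 and 0.379). With old rMETRNL set against old PBS, edgeR called Egln3 lower with no filter on low counts, where 2.01% of all genes were. Without old PBS 3 it called Egln3 and Bnip3 lower (5.98% of all genes) and Tgfb1 higher (3.78%). Pearson correlations with the mean log2 CPM of the members over the 9 libraries differed from gene to gene. They ran from -0.93 (Egln3) to 0.27 (Car9) for the hypoxia genes and from -0.64 (Tgfb2) to 0.87 (Tgfb1) for the TGF-beta genes. Without old PBS 4 and 2, Egln3 stood at -0.86 and Tgfb1 at 0.21. The part of either signal in the levels of the members was not tested.

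Across the 9 libraries, 8 members followed one another and the P4ha genes did not. The Pearson correlation of each gene's log2 CPM with the mean of the other 9 members was 0.99 for Serpinh1, 0.98 for Plod1, 0.96 for Loxl1, 0.92 for Loxl3, 0.86 for Plod2, 0.84 for Pcolce, 0.82 for Lox and 0.81 for Loxl2, but -0.05 for P4ha1 and -0.05 for P4ha2. The libraries share their composition and group structure, so these are descriptions. Leaving out old PBS 4 and 2, the libraries farthest from the median, gave 0.98 for Serpinh1, 0.46 for Lox and 0.38 for Plod2. It gave 0.60 for P4ha2 and 0.19 for P4ha1. P4ha2 was then above Lox and Plod2, so its split from the other members depended on those 2 libraries. Outside all lists, the genes most like the mean of the members were Rcn1, a calcium-binding protein of the endoplasmic reticulum (Pearson r 0.988, Spearman rho 0.833, and r 0.961 without those 2 libraries), Cbx6 (0.984, 0.950 and 0.943), Smo, the Hedgehog signal transducer (0.982, 0.983 and 0.920), Dap (0.980, 0.933 and 0.944) and Ssc5d (0.980, 0.883 and 0.905). Of 16124 genes, 2.77% had an r above 0.9.

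Markers of matrix-producing cells were read beside these levels, because in bulk RNA fewer cells of a type and less RNA per cell cannot be told apart. The 6 tenocyte genes summed to 228 to 555 CPM in young PBS, 151 to 205 CPM in old PBS and 284 to 333 CPM in old rMETRNL, and 5 of the 6 were lower in all old PBS libraries than in all young ones. The 8 genes of fibro-adipogenic progenitors summed to 2063 to 2733, 1836 to 3144 and 2491 to 3380 CPM in the same order, with 3 of 8 lower without overlap in old PBS than in young PBS. Of these 8, in old rMETRNL against old PBS 7 had a log2 fold change above 0 (median 0.49), 5 an unadjusted p under 0.05 and 4 no overlap. Among all genes, 5.25% were lower without overlap in old PBS than in young PBS. In old rMETRNL against old PBS, 8.07% had an unadjusted p under 0.05 in either direction and 6.99% were higher without overlap. The 7 macrophage genes summed to 1379 to 1658, 1060 to 1407 and 1517 to 1797 CPM, with 7 of 7 below 0 in old PBS against young PBS (median -0.37) and 7 of 7 above 0 in old rMETRNL against old PBS (median 0.49). The 5 endothelial genes summed to 303 to 371, 203 to 307 and 299 to 396 CPM, with 5 of 5 below 0 (median -0.29) and 5 of 5 above 0 (median 0.39). No gene of these 4 lists passed with edgeR in any comparison on all 6 libraries after the filter on low counts. Tenocyte genes had medians of -1.41 and 0.89, and the fibro-adipogenic genes a median of -0.10 in old PBS against young PBS. The part of these cell types, of the brain and liver transcripts and of old PBS 3 in the values of the collagen-modifying genes was not tested.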

How the data were processed

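The authors deposited raw counts per Ensembl gene for 9 libraries (NEBNext Ultra, paired-end), unnormalized and with replicates kept apart. Per the labels the tools were STAR and featureCounts on mm9, without versions. Strand setting and annotation are not given in the sources used here. The study used DESeq2.

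Of 54532 genes, 54495 were in GENCODE M21 and 54409 were matched to a symbol. Groups were compared in pairs on 6 libraries with edgeR 4.0.16 in R 4.3.3 (filterByExpr, TMM, quasi-likelihood F-test, Benjamini-Hochberg over all genes tested, threshold 0.05). Standard errors were the size of the log2 fold change over the root of F. CPM values were scaled by the TMM factors of all 9 libraries. For correlations, log2 CPM had a prior count of 2. Ratios within a library were log2 with a pseudocount of 0.5 and were tested by two-sided exact permutation. The fit was tested on data simulated from the young PBS and old rMETRNL libraries. Old PBS libraries were not part of that test, so it does not show how the fit behaves with their spread.

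The alternatives were DESeq2 1.42.0 (Wald test, and its size factors in edgeR), no filter, at least 10 counts in every library, the replicate number as a block, 1 fit of all 9 libraries, the sum of 7 fibrillar collagens as substrate, and each library left out in turn. Named genes were the 10 members, the 3 collagens, of the pathway list every gene past the threshold with the 3 highest and 3 lowest log2 fold changes, the highest and lowest of the substrate and regulator lists, and the 5 genes most like the members. Bmp1, P3h1, P4hb and Fkbp10 were also given for their roles after their values were seen. The members and lists were chosen with earlier results of these data known.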

Additional observations from a re-analysis of the deposited data

How the results depend on the processing

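Most values of the 10 genes kept their direction and their side of the threshold. Of 120 log2 fold changes under an alternative in each comparison, 112, 102 and 106 did so in old PBS against young PBS, old rMETRNL against old PBS and old rMETRNL against young PBS, while 2, 10 and 0 newly passed and 6, 8 and 14 changed sign.

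Genes called in old PBS against young PBS numbered 354 with no filter, 3 with at least 10 counts in every library, 265 with DESeq2 and 63 in the fit of all 9 libraries, and 2 to 401 with 1 library left out. In old rMETRNL against old PBS they numbered 740, 1, 354 and 71, then 65 with the replicate block and 3 to 1560 with 1 library left out. In old rMETRNL against young PBS they numbered 132 with no filter and 0 to 1 with 1 library left out. Members called numbered 0 to 2 and 0 to 6 in the first 2 comparisons with 1 library left out, both upper values without old PBS 3. In the second, 3 (Loxl2, Plod2 and Serpinh1) were called higher with no filter and 1 (Loxl2) with DESeq2, against 0.541% and 0.148% of all genes called higher. Pathway genes called numbered 1 with no filter and 1 with DESeq2 (Fkbp10 in each) and 0 to 4 with 1 library left out in old PBS against young PBS, 4 with no filter and 0 to 12 with 1 library left out in old rMETRNL against old PBS, and 2 with no filter (Fmod and Thbs1) in old rMETRNL against young PBS. In old PBS against young PBS, 0.219% of all genes were called lower with no filter and 0.0938% with DESeq2. With no filter, 0.541% were called higher in old rMETRNL against old PBS and 0.325% lower in old rMETRNL against young PBS. The cause of the changes in these numbers between settings was not tested.

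The median log2 fold change of the members ran from -0.69 to -0.42, from 0.39 to 0.85 and from -0.098 to 0.22 in the 3 comparisons with 1 library left out. Same-numbered libraries were not treated as pairs in the main fit. Of 7 such pairs, 2 had a correlation of their deviations over 0.1 (range -0.32 to 0.41). The highest was young PBS 3 with old PBS 3. With 3 libraries per group these correlations cannot show whether libraries were paired. With the replicate block no member was called, the median in old rMETRNL against old PBS was 0.33, P4ha1 stood at 0.033 and -0.063 in the comparisons with old PBS, and P4ha2 at 0.015 in old rMETRNL against old PBS.

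With 1 library left out, these values crossed 0. In old PBS against young PBS, Lox ran from -0.62 to 0.024 and P4ha1 from -0.096 to 0.030. In old rMETRNL against old PBS, P4ha1 ran from -0.027 to 0.12, P4ha2 from -0.14 to 0.060, and the log2 ratios of P4ha2 to P4ha1 from -0.13 to 0.081, of Loxl2 to Lox from -0.019 to 0.46, of Loxl1 to Lox from -0.18 to 0.11 and of Plod2 to collagen from -0.42 to 0.017. In old rMETRNL against young PBS, Loxl1 ran from -0.096 to 0.22, Loxl2 from -0.015 to 0.28, Loxl3 from -0.32 to 0.20, Plod1 from -0.17 to 0.061, Plod2 from -0.21 to 0.29, P4ha1 from -0.034 to 0.060, Serpinh1 from -0.10 to 0.23 and Pcolce from -0.099 to 0.39. Ratios whose groups did not overlap numbered 6 to 9, 6 to 8 and 1 to 6 in the 3 comparisons. Members held at least 127 counts in a library, and each comparison rests on 3 libraries per group.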
